A study of Homo sapiens and Mus musculus with 47 samples.

Results

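The axonemal dynein heavy chains examined here are DNAH1, DNAH2, DNAH3, DNAH5, DNAH6, DNAH7, DNAH8, DNAH9, DNAH11 and DNAH17, taken by gene name from every count table used. They make up 10 of the 57820 genes in the human tables, and 9 of the 55401 genes in the mouse tables carry the same names in title case. Mouse has no gene named Dnah7, and its near-identical copies Dnah7a, Dnah7b and Dnah7c were followed beside the others. The family was selected because of the response of DNAH17 to expression of the CBX7 reader in the RNA-seq of HEK293T cells, so values from that experiment are a description. The thresholds serve there only to sort genes, and no p is given.

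A dynein heavy chain is the large motor subunit that binds the microtubule and splits ATP. Axonemal forms sit in the outer and inner arms of motile cilia and sperm flagella and bend them, whereas the related cytoplasmic chains carry cargo in nearly all cells. Of the outer-arm chains, DNAH5, DNAH9 and DNAH11 are best known from respiratory cilia and DNAH8 and DNAH17 from sperm tails. DNAH1, DNAH2, DNAH3, DNAH6 and DNAH7 are inner-arm chains. Genes of this family are usually silent or weakly transcribed in lines without motile cilia, such as those used here.

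Chrom-seq places the peroxidase APEX2 at a histone mark through a reader domain, and RNA close to it is tagged with biotin, captured and sequenced. HEK293T is a human embryonic kidney line, HCT116 a human colon carcinoma line, NIH3T3 a mouse fibroblast line and Neuro-2a a mouse neuroblastoma line. The labels give one protocol for all samples, in which GCN4 and APEX2 fusion constructs were expressed for 48 h before labelling. The substrate biotin-aniline (500 µM) was present over 30 min, and 1 mM H2O2 started a reaction of 1 min. The reader constructs were driven by a strong viral promoter and carried the mouse TAF3 PHD finger, which binds H3K4me3, or the mouse CBX7 chromodomain, which binds H3K27me3. TAF3 Chrom-seq was compared with cells given the same system without a reader (Control) in HCT116, NIH3T3 and Neuro-2a, with 3 libraries in each group. No RNA-seq of these lines is among the samples. More RNA captured near the mark and a higher RNA level in cells with the reader thus cannot be told apart. For Chrom-seq, rose and fell refer to captured counts. RNA-seq of HEK293T compared 3 libraries of cells expressing the CBX7 reader with 3 Control libraries. The methods of the study describe that control as untreated cells, so effects of the CBX7 reader cannot be told apart from those of transfection, the other construct and labelling. EGR1, an early response gene named after its values were seen, had a log2 difference of 3.54 in the same libraries, and its part in the heavy chain values was not tested. A further set of HEK293T RNA-seq libraries came from cells transfected with antisense oligonucleotides (ASOs) against the long noncoding RNAs SETD5-AS1 (3 libraries), LINC00641 (2 libraries) or LINC00662 (3 libraries), with an untargeted oligonucleotide (NC ASO, 3 libraries) as their common control. The labels repeat the labelling protocol for these samples, but the study's methods name no APEX2 construct, biotin-aniline or H2O2 for ASO cells. They give 48 h with ASO before ChIP-seq and no time for this RNA-seq. Chrom-seq of HEK293T was not analysed here. The study calls its replicates independent, but the labels do not name separate cultures, so p-values measure the spread between these libraries, part of which may be technical.

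The 18 Chrom-seq libraries held between 10012172 and 17558305 counts, and totals of the 17 RNA-seq libraries lay between 8258859 and 15330874. SETD5-AS1 RNA was at 3.97 to 4.73 CPM under its own ASO and 52.9 to 53.5 under NC ASO, and LINC00641 was at 0.916 to 1.93 against 38.5 to 43.1. LINC00662 was at 1.23 to 1.97 CPM under its own ASO and 12.5 to 14.3 under NC ASO, so each target was lower in every library labelled for it. SETD5-AS1 was also at 28.1 to 30.6 CPM under the other targeting ASOs, and LINC00641 at 24.8 to 29.7 under SETD5-AS1 ASO, both below NC ASO. Counts on the gene from which each reader was taken were also higher where that reader was expressed. Reads from the construct and from the cells' own gene cannot be told apart in these counts. Taf3 was at 7880 to 9160 CPM in NIH3T3 TAF3 libraries against 123 to 134 in Control. In HCT116 TAF3 was at 32.3 to 32.9 CPM against 22.7 to 25.3, a log2 difference of 0.43 (SE 0.0859) under the fold threshold. Human CBX7 was at 39.5 to 44.1 CPM in the CBX7 libraries and 14.8 to 18.5 in Control. The first Neuro-2a TAF3 library stood apart, since 620 genes passed the thresholds without it and 176 with it, and the members in that line are given both ways. Among 10 marker genes of motile ciliated cells (FOXJ1, RSPH1, PIFO, TPPP3, CAPS, DNAI1, DNAI2, TEKT1, CCDC78 and MCIDAS), the sum per library was 24.1 to 26.6 CPM with CBX7 and 25.1 to 27.5 in Control. FOXJ1, the transcription factor that drives motile cilia, was at 0.163 ± 0.0704 CPM (SD, n = 3) in HEK293T Control, and TEKT1, a protein of ciliary microtubules, had no count there.

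DNAH17 spans chr17:76419778-76573476 on the minus strand of hg19 (ENSG00000187775.12), a length of 154 kb. The deposited counts cover the whole annotated span of each gene, introns included. Annotated genes on both strands lie inside this span, which raises the question of whether a DNAH17 count could belong to one of them. The opposite strand holds PGS1, a phospholipid synthesis gene that runs over the last part of DNAH17, as well as AC061992.1, RP11-559N14.5, DNAH17-AS1 and the pseudogene RP11-559N14.6. RN7SL454P, a copy of the signal recognition particle RNA, is the only one on the same strand and covers 0.171% of the span.

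**Figure D1:**
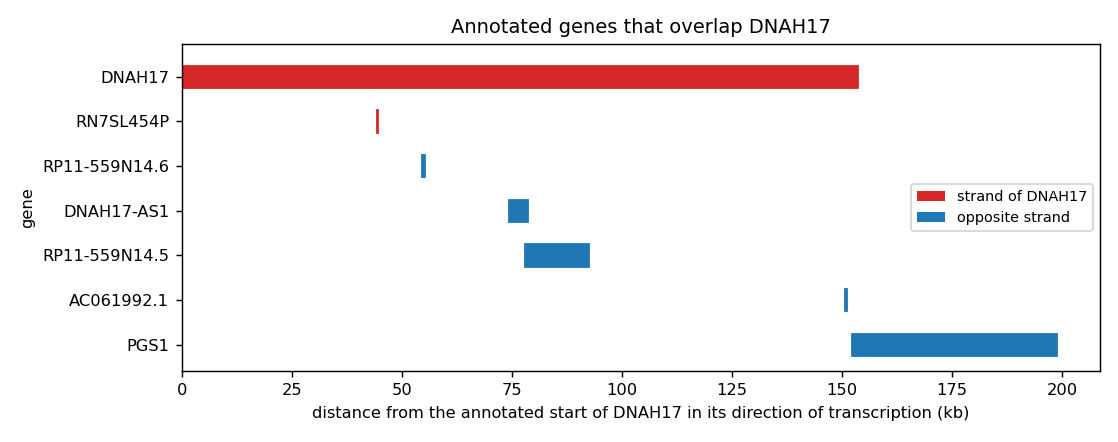
Annotated genes whose span overlaps DNAH17 in hg19, drawn by distance in kb from the start of DNAH17 along its direction of transcription, with red for the strand of DNAH17 and blue for the opposite strand. PGS1 overlaps the far end only, and RN7SL454P is the only gene on the same strand.

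Strand was used in the counting, as the files themselves show. Of the human genes of at least 1000 bp that lie wholly within a gene on the same strand only, 0 of 2028 had a count in any library, whereas 3341 of 4631 genes (72.1%) lying within a gene on the opposite strand only did. In mouse the same shares were 0 of 2487 and 2518 of 3229 (78.0%). Reads over 2 genes of one strand were thus left out, and reads from opposite strands were assigned apart. The genes opposite DNAH17 had few counts in the CBX7 experiment, apart from PGS1. RP11-559N14.5 and RP11-559N14.6 had 0 counts in all 3 CBX7 libraries, DNAH17-AS1 had 0, 1 and 2 counts, and AC061992.1 had 0, 0 and 3. PGS1 had 341, 425 and 436 counts with CBX7 and 500, 527 and 683 in Control, a log2 difference of -0.02 (SE 0.0913) after scaling to library size. The noncoding CTD-2357A8.3, the nearest gene beyond the start of DNAH17, had 18 counts over the CBX7 libraries and 7 over Control. On the far side the nearest gene without overlap, SNORA30, lies within PGS1 on the same strand, where the counting leaves reads out.

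With CBX7 expression DNAH17 stood among the most abundant members of the family, whereas in Control it was one of the low ones. It had 7, 11 and 15 counts in the Control libraries and 286, 246 and 314 in the CBX7 libraries. As CPM, the count divided by the library total after TMM scaling and brought to a fixed sum, this was 0.778 ± 0.194 against 28.9 ± 6.15 (SD, n = 3), or 37.1 times the Control mean. Every CBX7 library lay far above every Control library. The log2 difference was 5.17 (SE 0.228), the 8th highest of the 18204 genes compared. Leaving out single libraries gave values from 5.02 to 5.37. A gene was called at a log2 difference of at least 0.75 in size and an adjusted p under 0.05.

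Other heavy chains were higher with CBX7 as well, but by far less. DNAH1 had 185, 173 and 201 counts with CBX7 and 103, 88 and 126 in Control, or 2.5 times the Control mean in CPM (log2 difference 1.31, SE 0.159). DNAH6 had 128, 218 and 187 counts against 94, 110 and 132 (log2 difference 1.14, SE 0.136). DNAH2 had 47, 54 and 41 counts against 28, 35 and 45 (log2 difference 0.89, SE 0.228). In CPM, none of the CBX7 libraries overlapped Control for these genes, which are all inner-arm chains. With DNAH17 they make 4 of 9 compared members past both thresholds upward and 0 downward. Over all genes 4.17% were called higher and 3.48% lower. Since DNAH17 was chosen by this same experiment, nothing is read from that count.

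The remaining members did not pass. DNAH11 had 87, 110 and 101 counts with CBX7 and 166, 210 and 213 in Control (log2 difference -0.50, SE 0.128), so its 3 CBX7 libraries lay below Control while DNAH17, also an outer-arm chain, lay above. CDCA7L, a gene on the strand opposite DNAH11, was lower too, with 703, 1080 and 896 counts against 1455, 1771 and 1679. DNAH8 had 16, 14 and 17 counts against 6, 12 and 16 (log2 difference 0.96, SE 0.400), without overlap in CPM. DNAH3, DNAH7 and DNAH5 had log2 differences of 0.47, 0.28 and 0.17, with SEs of 0.416, 0.336 and 0.523, and their libraries overlapped between the groups. DNAH9 was too low to compare, with 1, 0 and 1 counts against 0 in all Control libraries. Over the 9 compared members the median log2 difference was 0.89, beside -0.012 over all genes.

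Levels between genes were compared per kb of annotated span, introns included. Genes with long introns are thus placed lower, and the order depends on this choice. In CPM alone DNAH11 (14.2) lay above DNAH1 (7.65) in HEK293T Control, and DNAH17 (28.9) lay above DNAH1 (19.1) with CBX7. In HEK293T Control DNAH1 was highest at 0.0909 ± 0.0145 CPM per kb (SD, n = 3), ahead of DNAH11 at 0.0395 ± 0.00191, DNAH6 at 0.0266 ± 0.00136 and DNAH2 at 0.0221 ± 0.00259. DNAH17 came 6th of 10 at 0.00506 ± 0.00126, and its neighbours DNAH3 (0.00709 ± 0.00202) and DNAH7 (0.00400 ± 0.000644) lay within their combined spread of it. With CBX7 it came 2nd at 0.188 ± 0.0400, a level whose spread overlapped that of DNAH1 at 0.227 ± 0.0391. DNAH17 alone then held 28.3 to 36.9% of the summed CPM of the family, against 1.59 to 2.45% in Control.

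**Figure D2:**
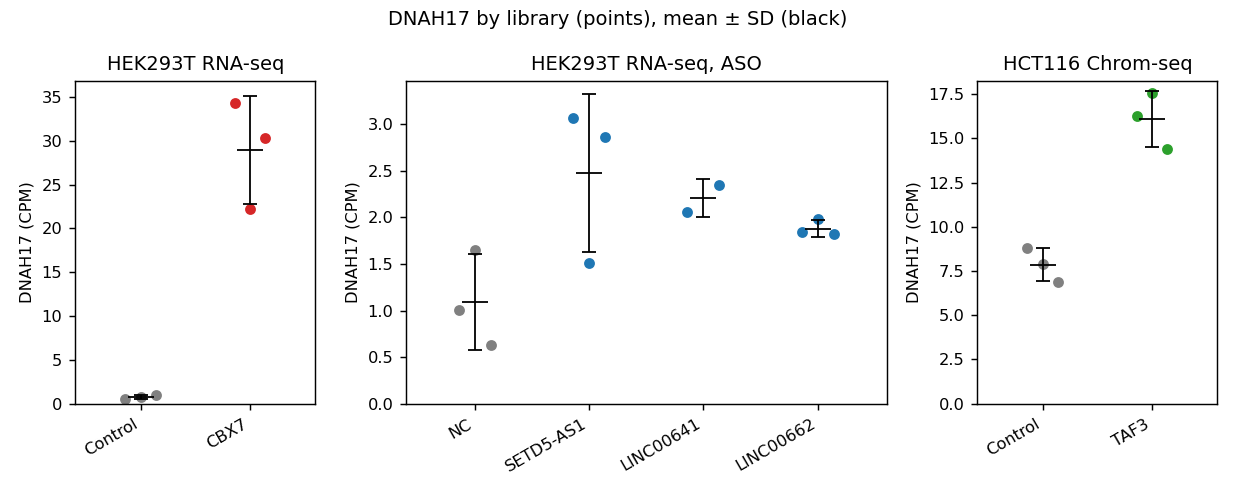
DNAH17 in CPM in each human library (points) with mean and SD (black) for HEK293T RNA-seq with the CBX7 reader, HEK293T RNA-seq after ASO transfection and HCT116 TAF3 Chrom-seq, each panel scaled within its own table. The CBX7 libraries lie at 22.2 to 34.3 CPM against 0.581 to 0.969 in Control.

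Lists of other ciliary genes gave the following counts with CBX7, beside 4.17% of all genes past the thresholds upward and 3.48% downward, and nothing is read from them. Of the intermediate and light chains 2 of 10 compared passed the thresholds upward and 0 downward, namely WDR78, an inner-arm intermediate chain (log2 difference 1.57, SE 0.163), and DNAL1, an outer-arm light chain (log2 difference 0.86, SE 0.120). Of the docking and arm assembly factors 1 of 15 passed, LRRC6 (log2 difference 1.76, SE 0.318), which helps to assemble the arms in the cytoplasm. Radial spoke, central pair and ruler genes gave 4 of 14 upward, among them RSPH4A, a spoke head protein (log2 difference 1.75, SE 0.319), and HYDIN, a central pair protein (log2 difference 1.64, SE 0.231), which has a near-identical copy that could share its reads. The medians of these lists were 0.39, 0.16 and 0.31, beside -0.012 over all genes. Of the heavy chain genes outside the 10 members, DNAH10 (log2 difference 1.21, SE 0.245) and DNAH12 (log2 difference 2.25, SE 0.598) passed upward, whereas DNAH14 and DNHD1 were at -0.05 and -0.18. The heavy chains of cytoplasmic and intraflagellar dynein, DYNC1H1 and DYNC2H1, were at -0.25 and -0.18 and did not pass.

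Regulators of motile cilia gave 1 of 9 compared genes past the thresholds upward and 1 downward. FOXJ1 passed upward with only 21 counts over the CBX7 libraries and 7 over Control, and CCNO, a driver of multiciliated cell formation, passed downward (log2 difference -0.78, SE 0.210). RFX3 and RFX2, factors that bind X-box motifs in cilia promoters, had log2 differences of 0.48 and 0.29, under the fold threshold. Whether any of these levels bears on DNAH17 was not tested.

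The RefSeq promoter windows of DNAH1, DNAH2 and DNAH6 are shown because they hold a short motif that RFX factors read. Of the 10 members 8 matched an entry of that table (GRCh38, from 250 bases before to 50 bases after the start), and DNAH3 and DNAH17 did not. Capitals mark GTTGCC or its reverse complement GGCAAC, one arm of the X-box, searched on both strands. The DNAH1 window is chr3:52316069-52316368, that of DNAH2 is chr17:7717494-7717793 and that of DNAH6 is chr2:84516248-84516547, all on the plus strand and written 5′ to 3′.
DNAH1: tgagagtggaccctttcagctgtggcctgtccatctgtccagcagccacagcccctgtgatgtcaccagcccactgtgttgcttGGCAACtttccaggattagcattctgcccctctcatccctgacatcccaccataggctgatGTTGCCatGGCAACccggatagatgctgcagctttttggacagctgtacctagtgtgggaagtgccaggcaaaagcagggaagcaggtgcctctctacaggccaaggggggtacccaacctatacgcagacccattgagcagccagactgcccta
DNAH2: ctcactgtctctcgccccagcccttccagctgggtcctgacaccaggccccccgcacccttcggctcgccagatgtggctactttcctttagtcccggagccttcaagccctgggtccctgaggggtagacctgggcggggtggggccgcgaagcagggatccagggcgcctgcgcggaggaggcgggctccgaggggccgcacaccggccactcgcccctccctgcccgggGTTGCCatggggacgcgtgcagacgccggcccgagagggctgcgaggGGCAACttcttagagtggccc
DNAH6: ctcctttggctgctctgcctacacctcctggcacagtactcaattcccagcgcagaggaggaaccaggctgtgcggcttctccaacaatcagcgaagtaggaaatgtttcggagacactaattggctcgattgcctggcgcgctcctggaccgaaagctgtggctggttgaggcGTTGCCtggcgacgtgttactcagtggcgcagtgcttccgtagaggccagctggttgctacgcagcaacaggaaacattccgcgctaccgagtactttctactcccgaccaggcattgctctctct

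The motif was present in 3 of the 8 members with an entry, DNAH1 (3 matches), DNAH2 (2 matches) and DNAH6 (1 match), and in 12.2% of all 35116 promoter windows. In DNAH1 a pair of matches on opposite strands adjoin with only the bases at between them. The motif was chosen with the results known, so its presence is a description of these windows. An exact search misses near variants, such as gttgctacgcagcaac in DNAH6 and gttgcttagcaac in the DNAH7 window, which is not shown. A window without the exact letters thus cannot be said to lack an RFX-type site. A second motif, GTAAACA, which forkhead factors such as FOXJ1 bind, was present in a DNAH9 window (chr17:11882652-11882951) and in 3.42% of all windows. The other DNAH9 window in that table (chr17:11598220-11598519) did not hold it. The DNAH1 window held 2 CpG dinucleotides, whereas DNAH6 held 18 and DNAH2 held 23, with a median of 14 over all windows. A match describes these letters and not a bound site.

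The DNAH17 rise that chose the family did not come from the ASO experiment. The members were listed with earlier results of these data known, so the ASO values are not an independent check. DNAH17 was low in all groups. It had 13, 19 and 7 counts under NC ASO and 37, 20 and 36 under SETD5-AS1 ASO, or 1.10 ± 0.517 against 2.48 ± 0.844 CPM (SD, n = 3). LINC00641 ASO libraries had 27 and 33 counts, and LINC00662 ASO libraries had 28, 29 and 25. The CPM ranges overlapped between NC ASO and SETD5-AS1 ASO and did not overlap for the other ASOs. By edgeR's quasi-likelihood test with Benjamini-Hochberg adjustment DNAH17 rose with SETD5-AS1 ASO (log2 difference 1.17, SE 0.384, adjusted p = 0.0161) and with LINC00641 ASO (log2 difference 1.02, SE 0.400, adjusted p = 0.0399). It missed the threshold with LINC00662 ASO (log2 difference 0.84, SE 0.362, adjusted p = 0.0518).

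These DNAH17 calls rested on single libraries. With SETD5-AS1 ASO the call was lost without NC ASO replicate 1 (log2 difference 1.10, adjusted p = 0.054), NC ASO replicate 3 (0.90, adjusted p = 0.0813) or SETD5-AS1 ASO replicate 1 (0.99, adjusted p = 0.0676). With LINC00641 ASO it was lost without NC ASO replicate 1 (0.94, adjusted p = 0.101), NC ASO replicate 3 (0.74, adjusted p = 0.141) or either LINC00641 ASO library (1.12 and 0.92, adjusted p = 0.0741 and 0.166), and in DESeq2 (adjusted p = 0.117). With LINC00662 ASO it was gained without NC ASO replicate 2 (1.24, adjusted p = 0.0146).

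DNAH1 and DNAH6 rose with every ASO, with larger estimates than DNAH17. DNAH1 had 41, 38 and 34 counts under NC ASO, 125, 123 and 132 under SETD5-AS1 ASO, 216 and 229 under LINC00641 ASO and 174, 163 and 140 under LINC00662 ASO. The NC ASO libraries lay below all others. The log2 differences of DNAH1 were 1.66 (SE 0.171, adjusted p = 2.73e-07), 2.38 (SE 0.169, adjusted p = 7.1e-10) and 1.85 (SE 0.171, adjusted p = 7.9e-10) in the same order. DNAH6 had 13, 21 and 26 counts under NC ASO, 133, 117 and 128 under SETD5-AS1 ASO, 128 and 100 under LINC00641 ASO and 51, 62 and 71 under LINC00662 ASO. Its log2 differences were 2.56 (SE 0.237, adjusted p = 7.76e-08), 2.32 (SE 0.273, adjusted p = 6.07e-07) and 1.38 (SE 0.284, adjusted p = 0.000171). For both genes the calls held in every alternative run. All 3 comparisons use the same NC ASO libraries, so a low value in those libraries enters each of them. In the RNA-seq Control without ASO, counted in another table, DNAH1 had 88 to 126 counts and DNAH6 had 94 to 132. The NC ASO values thus lay below those of cells without an ASO for both genes, a contrast that was not tested because the tables were made separately. EGR1 stood at 40.8 to 47.6 CPM under NC ASO and at 1.67 to 11.5 over the targeting ASO libraries. Its part in the heavy chain values was not tested.

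DNAH11, an outer-arm chain, had 62, 63 and 46 counts under NC ASO, 90, 92 and 93 under SETD5-AS1 ASO, 162 and 149 under LINC00641 ASO and 128, 144 and 140 under LINC00662 ASO. It rose with LINC00641 ASO (log2 difference 1.27, SE 0.179, adjusted p = 6.26e-06) and LINC00662 ASO (1.05, SE 0.169, adjusted p = 8.03e-06). With SETD5-AS1 ASO the difference of 0.60 (SE 0.175, adjusted p = 0.00763) was under the fold threshold. CDCA7L on the opposite strand had 837, 757 and 665 counts under NC ASO and 972 to 1463 in the targeting ASO libraries, and its part in the DNAH11 values was not tested. DNAH2, an inner-arm chain, had 9 to 18 counts under NC ASO and 21 to 40 over the other ASO libraries. Its log2 differences of 0.92 (adjusted p = 0.0415), 1.06 (adjusted p = 0.0319) and 0.89 (adjusted p = 0.0346) passed narrowly, and each call was lost without NC ASO replicate 1 (0.63, 0.77 and 0.60) or NC ASO replicate 3 (0.97, 1.11 and 0.95). Leaving out SETD5-AS1 ASO replicate 1 (0.71) or 2 (0.95), LINC00641 ASO replicate 2 (0.64), or LINC00662 ASO replicate 1 (0.75) or 2 (0.87) also ended its call, as did DESeq2 in all 3 comparisons.

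The members with few counts varied. DNAH5 had 3, 2 and 2 counts under NC ASO, 16, 9 and 12 under SETD5-AS1 ASO, 21 and 23 under LINC00641 ASO and 0, 13 and 1 under LINC00662 ASO. It rose with SETD5-AS1 ASO (log2 difference 2.27, SE 0.591, adjusted p = 0.00353) and LINC00641 ASO (3.0, SE 0.567, adjusted p = 0.000177). The LINC00662 ASO value rested on 1 library and did not pass (0.75, SE 0.945, adjusted p = 0.527). DNAH7, with 17, 6 and 9 counts under NC ASO and 31, 25 and 37 under SETD5-AS1 ASO, rose with that ASO (1.46, SE 0.371, adjusted p = 0.00298). DNAH8 went from 3, 6 and 2 counts to 9, 16 and 19 there (1.88, SE 0.546, adjusted p = 0.00774). With LINC00662 ASO DNAH7 (11, 7 and 13 counts, -0.25, SE 0.482) and DNAH8 (6, 2 and 0 counts, -0.67, SE 0.857) lay on the lower side without passing, and with LINC00641 ASO they were at 0.70 (SE 0.460) and 1.0 (SE 0.746) and did not pass either. DNAH3, an inner-arm chain, had 27, 30 and 40 counts under NC ASO and 17 and 19 under LINC00641 ASO, where it fell (log2 difference -1.03, SE 0.352, adjusted p = 0.0201). That call was lost without NC ASO replicate 3 (-0.81) or either LINC00641 ASO library (-0.99 and -1.06), and in DESeq2 (-1.05, adjusted p = 0.0519). DNAH9 had 0 counts in all NC ASO libraries and at most 2 in any ASO library, too few to test.

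**Figure D3:**
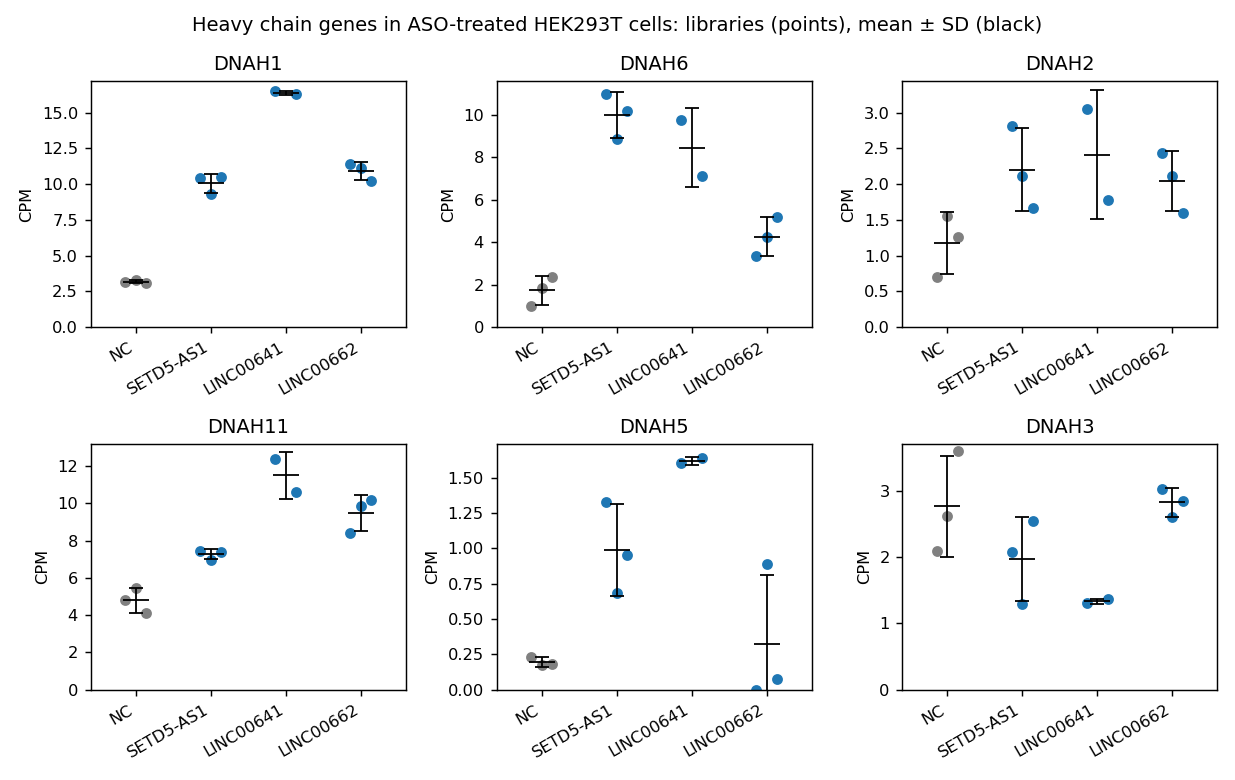
CPM of DNAH1, DNAH6, DNAH2, DNAH11, DNAH5 and DNAH3 in each HEK293T library after ASO transfection (points) with mean and SD (black), for NC ASO in grey and the targeting ASOs in blue. NC ASO lies below all targeting ASOs for DNAH1, DNAH6, DNAH2 and DNAH11 and above LINC00641 ASO for DNAH3.

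With SETD5-AS1 ASO 7 of 9 tested members rose and 0 fell, where 12.9% of 18544 genes were called higher and 11.5% lower. With LINC00641 ASO 6 of 9 rose and 1 fell, where 11.0% of all genes were called higher and 11.5% lower. With LINC00662 ASO 4 of 9 rose and 0 fell, where 11.6% were called higher and 13.3% lower. DNAH5, with 7 counts over NC ASO, passed the filter of a mean above 3 counts per library through the targeting ASO libraries. It could hardly have been called lower. The median log2 differences of the tested members were 1.46, 1.06 and 0.84, beside 0.028, 0.004 and 0.001 over all genes. In contrast to the CBX7 experiment, DNAH10 (0.39, 0.35 and -0.32) and DNAH12 (-0.02, 0.25 and 0.55) did not pass with any ASO, whereas DNHD1, a heavy-chain-like gene of sperm flagella, rose with each (log2 difference 1.81, 2.07 and 1.76, with SEs of 0.0988, 0.109 and 0.102). DYNC1H1 of cytoplasmic dynein rose with each as well (0.81, 0.89 and 0.90), and DYNC2H1, which carries cargo inside cilia, fell with LINC00662 ASO (-1.52, SE 0.0821, adjusted p = 3.44e-14) and was at -0.69 and 0.27 with the others.

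Other ciliary genes moved in both directions. Among 14 spoke, central pair and ruler genes 5, 5 and 4 rose in the 3 comparisons and SPAG6, a central pair protein, fell with each. HYDIN rose with each (log2 difference 1.89, 1.25 and 1.65), and RSPH1, a spoke head protein, rose with SETD5-AS1 ASO (2.28, SE 0.422) and LINC00641 ASO (2.20, SE 0.471). Of 10 intermediate and light chains, DNAI1 of the outer arm rose with SETD5-AS1 ASO (1.31, SE 0.314) and LINC00641 ASO (1.17, SE 0.362), and DNALI1 of the inner arm fell with LINC00662 ASO. LRRC6 rose with SETD5-AS1 ASO (1.61, SE 0.358) and LINC00641 ASO, TTC25 of the docking complex rose with SETD5-AS1 ASO, ZMYND10, an assembly factor, fell with LINC00641 ASO (-0.96, SE 0.244), and ARMC4 of the docking complex fell with LINC00662 ASO (-1.12, SE 0.166). Of the regulators RFX2 rose with SETD5-AS1 ASO (0.86) and LINC00641 ASO (0.85) and reached 0.74 with LINC00662 ASO, just under the threshold, while CCNO fell with each (-1.12, -1.24 and -0.84). FOXJ1, with 4 to 21 counts in the NC ASO libraries, fell with LINC00641 ASO (-2.58, SE 0.835) and LINC00662 ASO (-2.63, SE 0.75). MCIDAS, a switch for multiciliated cells, fell with SETD5-AS1 ASO (-1.10, SE 0.183) and LINC00641 ASO (-0.84, SE 0.190), and the marker TPPP3 fell with each (-0.89, -1.24 and -1.37). The ciliated cell markers summed to 36.2 to 41.9 CPM under NC ASO and to 17.5 to 30.2 CPM in the targeting ASO libraries, with TEKT1 at 0 under SETD5-AS1 ASO. Single markers were split, and RSPH1 and DNAI1 are among them. With SETD5-AS1 ASO 2 of 8 tested rose and 2 fell. With LINC00641 ASO 2 of 7 rose and 3 fell, and with LINC00662 ASO 0 of 7 rose and 3 fell. The shares over all genes are those given above. Whether the marker levels bear on the heavy chains was not tested.

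Direct comparison of the targeting ASOs, which leaves NC ASO out, was added after the data had been examined. Between SETD5-AS1 ASO and LINC00641 ASO 0 of 9 members passed (1.72% of all genes called). By edgeR at an unadjusted p under 0.05, 3 members differed there, and DESeq2 also gave 0. DNAH1 and DNAH11 had log2 differences of -0.71 (SE 0.134, adjusted p = 0.00597) and -0.66 (SE 0.157, adjusted p = 0.024), under the fold threshold. For DNAH17 the difference was 0.16, with an approximate 95% interval from -0.51 to 0.84. Between SETD5-AS1 ASO and LINC00662 ASO 3 of 9 passed (11.1% of all genes called), as DNAH6 (1.24, SE 0.179), DNAH7 (1.77, SE 0.362) and DNAH8 (2.60, SE 0.663) were higher with SETD5-AS1 ASO. Between LINC00641 ASO and LINC00662 ASO 3 of 9 passed (8.41% of all genes called). DNAH6 (0.99, SE 0.213) and DNAH5 (2.30, SE 0.711) were higher and DNAH3 (-1.08, SE 0.319) lower with LINC00641 ASO. The DNAH6 call was lost without LINC00641 ASO replicate 2 (0.75, adjusted p = 0.0576). The DNAH3 call was lost without either LINC00641 ASO library (-1.05 and -1.11). The DNAH5 call was lost without either of them (2.32 and 2.29) and without LINC00662 ASO replicate 1 (1.71) or 3 (1.87), and in DESeq2 (adjusted p = 0.409). DNAH5 also became a call between SETD5-AS1 ASO and LINC00662 ASO without LINC00662 ASO replicate 2 (4.49, adjusted p = 0.00219). The DNAH17 intervals were -0.21 to 0.99 and -0.38 to 0.84 in these 2 comparisons.

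DNAH17 RNA was higher in TAF3 Chrom-seq of HCT116 than in Control. It had 143, 137 and 118 counts in Control and 270, 275 and 206 in TAF3 Chrom-seq, or 7.87 ± 0.946 against 16.1 ± 1.59 CPM (SD, n = 3). No TAF3 library overlapped Control. The log2 difference was 1.04 (SE 0.128, adjusted p = 9.97e-09), and the call held in every alternative run. The antisense RNA RP11-559N14.5, which was nearly absent from HEK293T, had 154, 130 and 143 counts in Control and 173, 127 and 111 with TAF3 (log2 difference 0.06, SE 0.145, adjusted p = 0.781). PGS1 was at -0.05 (SE 0.0914, adjusted p = 0.73). Neither gene passed the thresholds.

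The other members did not share one direction in HCT116. DNAH9 had 1, 2 and 0 counts in Control and 7, 7 and 5 with TAF3, a count ratio of 6.89 after scaling to library totals (exact 95% interval 2.03 to 36.3, counting error only). It was called (adjusted p = 0.0207), and the call was lost without Control replicate 3 (adjusted p = 0.0945), in DESeq2 (adjusted p = 0.0588) and with no filter (adjusted p = 0.0562). DNAH3 had 14, 25 and 18 counts in Control and 44, 24 and 26 with TAF3 (log2 difference 0.84, SE 0.335, adjusted p = 0.0468). Its call was lost without Control replicate 1 (0.69) or 3 (0.80) and without TAF3 replicate 1 (0.57) or 3 (0.90), in DESeq2 (adjusted p = 0.0963) and with no filter (adjusted p = 0.052). The antisense RP11-1096G20.5, opposite DNAH9, had 24, 25 and 37 counts in Control and 41, 48 and 52 with TAF3. TMEM159, opposite DNAH3, had 250, 281 and 256 counts against 235, 186 and 157. The part of either gene in these values was not tested.

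DNAH1, the most abundant member per kb in HCT116 Control at 0.317 ± 0.0456 CPM per kb (SD, n = 3), had 505, 411 and 434 counts there and 254, 263 and 259 with TAF3. Its libraries did not overlap, and the log2 difference of -0.67 (SE 0.103, adjusted p = 1.04e-06) was under the fold threshold. It reached -0.75 and was called without Control replicate 2. DNAH6 was at -0.38 (SE 0.167, adjusted p = 0.0706), DNAH2 at 0.30 (SE 0.226, adjusted p = 0.32) and DNAH5 at -0.17 (SE 0.222, adjusted p = 0.597). DNAH8 and DNAH11 had few counts, with log2 differences of 1.47 (SE 0.601, adjusted p = 0.053) and 0.85 (SE 0.499, adjusted p = 0.19). DNAH8 was called without Control replicate 2 (1.85) and with a stricter filter on low counts (1.48, adjusted p = 0.0206). DNAH11 was called without Control replicate 3 (1.87), the library that held 21 counts against 5 and 5 in the others. DNAH7 had 0, 0 and 1 counts against 2, 1 and 1 and was not tested. In all 3 of 9 tested members rose and 0 fell, where 3.34% of 18731 genes were called higher and 3.28% lower. DNAH9, with 3 counts over Control, passed the count filter through the TAF3 libraries and could hardly have been called lower. Of the other heavy chain genes DNAH10 (0.72, SE 0.157, adjusted p = 0.000275), DNHD1 (-0.63, SE 0.0959, adjusted p = 7.74e-07) and DNAH14 (-0.21, SE 0.0708, adjusted p = 0.0152) were under the fold threshold, and DNAH12 was at 0.22 (SE 0.438). Of the docking factors CCDC114 fell (-0.96, SE 0.158, adjusted p = 3.47e-06), and of the ciliated cell markers, which summed to 28.0 to 29.8 CPM in Control and 22.9 to 25.5 with TAF3, TPPP3 fell (-1.17, SE 0.409, adjusted p = 0.0214).

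The mouse lines were counted in separate tables, and their levels are set side by side without a test. Dnah17 was the most abundant member per kb in NIH3T3 Control at 0.0584 ± 0.00722 CPM per kb (SD, n = 3), and in Neuro-2a Control it reached 0.395 ± 0.0190, next to Dnah1 at 0.447 ± 0.0137. In CPM alone Dnah17 (43.0) lay above Dnah1 (28.4) in Neuro-2a Control. In NIH3T3 Dnah17 had 123, 87 and 106 counts in Control and 115, 144 and 203 with TAF3. In Neuro-2a it had 564, 496 and 446 against 667, 537 and 561. Neither difference passed, at 0.51 (SE 0.202, adjusted p = 0.0691, approximate 95% interval 0.12 to 0.91) in NIH3T3 and 0.33 (SE 0.146, adjusted p = 0.299, interval 0.05 to 0.62) in Neuro-2a. The TAF3 libraries lay above Control in CPM in both lines, though narrowly.

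Other members had far higher captured counts with TAF3 in NIH3T3. Dnah11 had 0, 1 and 7 counts in Control and 102, 85 and 97 with TAF3 (log2 difference 5.06, SE 0.522, adjusted p = 4.49e-08). Dnah2 had 31, 24 and 23 counts against 142, 135 and 86, a mean CPM 4.61 times that of Control (log2 difference 2.20, SE 0.289, adjusted p = 2.34e-06). Dnah6 had 15, 24 and 15 counts against 79, 57 and 75 (1.92, SE 0.357, adjusted p = 0.000237). These inner-arm genes and the outer-arm Dnah11 showed no overlap between the groups. Dnah9 rose from 6, 4 and 0 counts to 54, 50 and 33 (3.71, SE 0.621, adjusted p = 6.77e-05), and Dnah8 from 4, 1 and 0 to 7, 27 and 26 (3.45, SE 0.917, adjusted p = 0.00684). Dnah1 and Dnah3 had at most 12 counts in any library and did not pass (1.18, SE 0.834, and 1.71, SE 1.07), and Dnah5 had 4 counts over Control and was not tested. Hence 5 of 8 tested members rose and 0 fell, where 10.7% of 19220 genes were called higher and 0.375% lower. Dnah11, Dnah8 and Dnah3, with 8, 5 and 7 counts over Control, passed the count filter through the TAF3 libraries. They could hardly have been called lower, so the tally is a description. Of the copies of Dnah7, Dnah7a rose from between 13 and 29 counts to between 114 and 133 (2.48, SE 0.295, adjusted p = 5.18e-07), whereas Dnah7b (0.41, SE 0.619) and Dnah7c (-0.28, SE 1.17) did not pass, and reads shared among the copies leave their separate values uncertain. Dnah14 (3.94, SE 0.382) and Dnah10 (1.40, SE 0.184) rose too, while Dync1h1 and Dync2h1 were at 0.08 and -0.05. Of the other ciliary genes, 1 of 10 intermediate and light chains, 2 of 11 docking and assembly factors and 2 of 11 spoke, central pair and ruler genes rose and 0 fell. The 7 ciliated cell markers found summed to 6.14 to 7.73 CPM in Control and 6.92 to 9.56 with TAF3, with Rsph1 at 0 in both groups. Their part in the heavy chain values was not tested. On the opposite strand of Dnah11, Cdca7l had 526, 435 and 466 counts in Control and 456, 487 and 485 with TAF3. Lyrm1, opposite Dnah3, had 181, 144 and 138 counts against 218, 176 and 168. Gm35823, opposite Dnah1, had 33, 66 and 26 against 77, 56 and 73. The part of these genes was not tested either.

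In Neuro-2a the one member called was Dnah2, with 38, 42 and 30 counts in Control and 117, 89 and 108 with TAF3 (log2 difference 1.60, SE 0.243, adjusted p = 0.0143). The groups did not overlap. The call held without the first TAF3 library (1.46, adjusted p = 5.41e-05) and was lost without any one Control library, at 1.55, 1.76 and 1.52. Dnah9 had 0, 3 and 0 counts against 17, 5 and 18, a count ratio of 14.8 (exact 95% interval 4.71 to 74.7, counting error only). It did not pass (adjusted p = 0.142), but was called without the first TAF3 library (adjusted p = 0.0248), in DESeq2 (adjusted p = 0.0478) and with no filter (adjusted p = 0.0155). Dnah3 had 0, 2 and 2 counts against 8, 9 and 9 (2.65, SE 0.905, adjusted p = 0.189), and Dnah11 1, 1 and 6 against 16, 5 and 3 (1.65, SE 1.01, adjusted p = 0.451). Dnah1, abundant in this line, had 380, 303 and 312 counts against 163, 307 and 309 (-0.27, SE 0.197, adjusted p = 0.531), the low value being the first TAF3 library. Dnah8 was at 0.22 (SE 0.636), and Dnah5 and Dnah6 were too low to test. Gm50252, on the strand opposite Dnah8, had 225, 234 and 196 counts in Control and 270, 214 and 297 with TAF3. In all 1 of 7 tested members rose and 0 fell, where 1.01% of 17006 genes were called higher and 0.0235% lower. Dnah9, Dnah3 and Dnah11, with 3, 4 and 8 counts over Control, passed the count filter through the TAF3 libraries and could hardly have fallen. Without the first TAF3 library 2 members were called, Dnah2 and Dnah9, and the log2 differences of Dnah17, Dnah3, Dnah11, Dnah8 and Dnah1 were 0.17, 2.67, 0.58, -0.30 and -0.06. With all libraries in the fit Dnah10 rose as well (1.71, SE 0.330, adjusted p = 0.0422), the only other heavy chain gene called. Among the other ciliary genes Ttc25 (1.01, SE 0.372, adjusted p = 0.219) and Rsph14 (1.21, SE 0.499, adjusted p = 0.27) did not pass in Neuro-2a. The 7 ciliated cell markers found summed to 83.3 to 96.9 CPM in Neuro-2a Control and 76.6 to 97.1 with TAF3. Pifo and Tekt1 were at 0 in both groups. Whether these marker levels bear on the heavy chains was not tested.

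**Figure D4:**
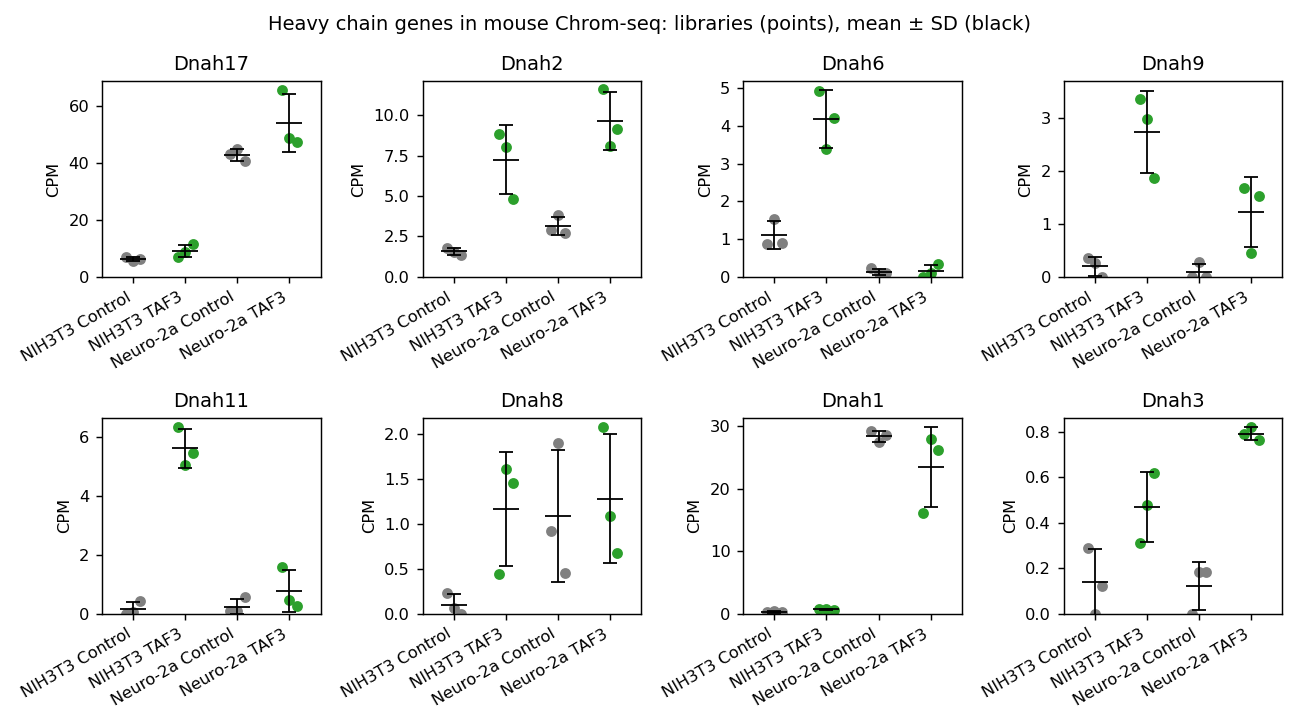
CPM of 8 mouse heavy chain genes in each NIH3T3 and Neuro-2a Chrom-seq library (points) with mean and SD (black), Control in grey and TAF3 in green, scaled within each table. All TAF3 libraries lie above Control for Dnah2, Dnah9, Dnah3 and Dnah17 in both lines. Some do so narrowly, as in NIH3T3 for Dnah17 (lowest TAF3 7.16, highest Control 7.13 CPM) and Dnah3 (0.311 and 0.29). In NIH3T3 the same holds for Dnah11, Dnah6, Dnah8 and Dnah1. Of these genes only Dnah2 was called in both lines. The share of all genes that separate in this way was not counted, so nothing is read from the separation.

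Whether the TAF3 difference itself differed between the mouse lines was tested with an interaction term. By edgeR 0 of 8 tested members passed, where 3.05% of 19509 genes did. At an unadjusted p under 0.05 there were 3, all smaller in Neuro-2a, namely Dnah11 (difference of log2 differences -3.41, SE 1.31, adjusted p = 0.221), Dnah8 (-3.23, SE 1.15, adjusted p = 0.174) and Dnah1 (-1.46, SE 0.507, adjusted p = 0.159). Dnah11 passed without the first Neuro-2a TAF3 library (-4.46, adjusted p = 0.0208) and with no filter (-3.41, adjusted p = 0.0267). For Dnah2, called in both lines, the difference was -0.60 with an interval from -1.37 to 0.17, and for Dnah17 it was -0.19 with an interval from -0.67 to 0.29.

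**Figure D5:**
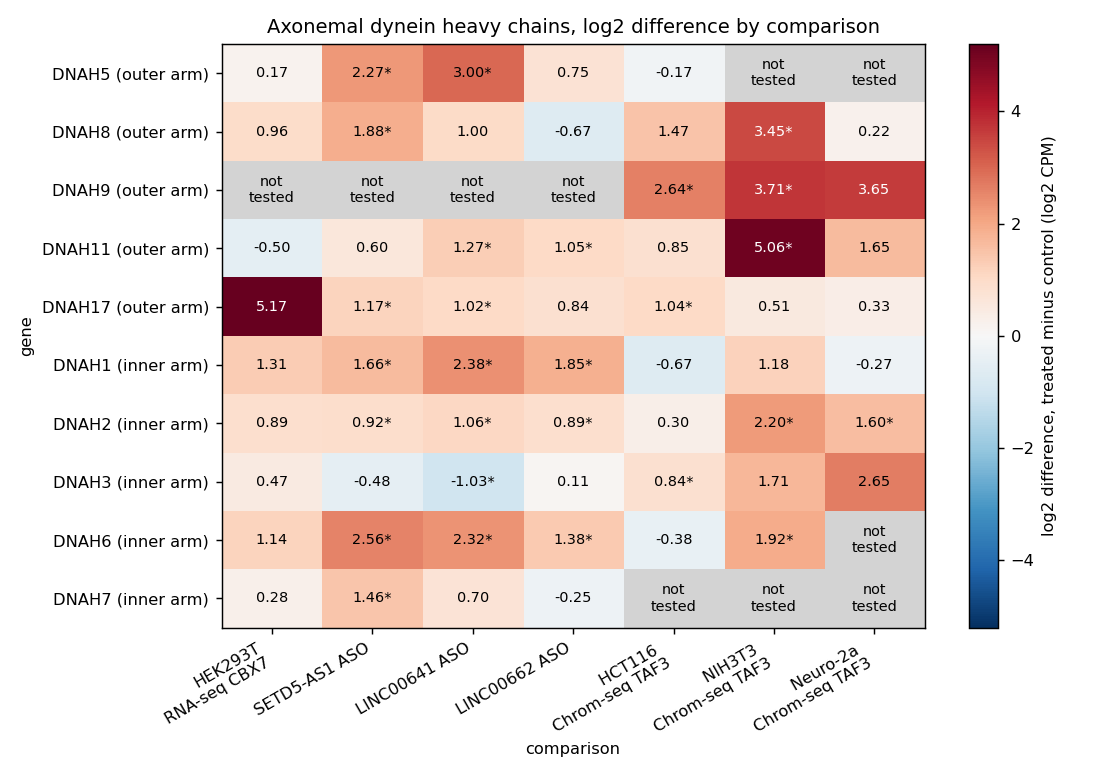
Log2 difference, treated minus control, of each heavy chain gene (rows, mouse genes under the human symbol) in each comparison (columns), with the arm the chain belongs to. Asterisks mark calls, none is given for the CBX7 column because it chose the family, and grey cells were too low to test or, for DNAH7 in mouse, have no gene of that name. DNAH17 stands out at 5.17 with CBX7 and lies between 0.33 and 1.17 elsewhere.

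Across all comparisons no member repeated the size of the DNAH17 rise with CBX7 within HEK293T, where the next highest value of any member was 3.0 for DNAH5 with LINC00641 ASO. The value nearest to it elsewhere was 5.06 for Dnah11 in NIH3T3 TAF3 Chrom-seq. Over the 17 HEK293T libraries, centred within each of their 2 tables on the log2 CPM scale, the genes whose pattern was most like that of DNAH17 were ZNF317 (Pearson r = 0.95), CHAC2 (0.943), DPF2 (0.936), MLF1IP (0.924) and NBPF1 (0.923), out of 13805 genes with enough counts. Their own log2 differences with CBX7 were only 0.49 to 0.77, so likeness here means a parallel split between the same libraries rather than a rise of like size. Among the members r was 0.658 for DNAH1, 0.656 for DNAH2, 0.543 for DNAH6, 0.0786 for DNAH3 and -0.151 for DNAH11. The CBX7 and Control libraries that chose DNAH17 are among the points and hold its largest difference. These r values thus mostly follow that split, and nothing is read from them. The points also share libraries and depth, so no p is given. In these bulk libraries a change in RNA per cell and a change in the number of cells that hold it cannot be told apart.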

How the data were processed

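Gene counts from 35 libraries in 5 tables were used. According to the study's methods, polyA RNA libraries were read in pairs, trimmed with fastp, mapped by HISAT2 (human reads on hg19, mouse reads on mm10) and counted over GENCODE v19 or vM25 genes with featureCounts, and the deposited values are raw counts per gene that the authors did not normalise. The submitters' processing notes name fastp 0.23.1, HISAT2 2.1.0, featureCounts 2.0.1, FastQC 0.11.8 and DESeq2 1.34.0. Settings for strand and overlap are not given in the sources used here.

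Genes with a mean count above 3 per library were scaled by TMM and tested with edgeR 4.0.16 (quasi-likelihood test, R 4.3.3), with Benjamini-Hochberg adjustment over all genes tested. The groups of a comparison alone entered its fit, and a gene was called at a log2 difference of at least 0.75 in size and an adjusted p under 0.05. The mouse lines were compared by an interaction term. CPM values are counts divided by the TMM-scaled library total. The fits were tested on simulated data. Alternatives were DESeq2 1.42.0, other scalings and filters, the replicate number as a block, 1 fit of all ASO groups and each library left out in turn.

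The members and gene lists were chosen with earlier results of these data known. Named genes were the members, the called genes and largest values of the lists, genes overlapping or next to DNAH17, and the 5 genes most like it over 17 libraries among those with a mean count of at least 20 in both HEK293T tables. The 12 libraries of the HEK293T Chrom-seq table were not used, since the table stacks 2 blocks of unlike width, the TAF3 block carries no gene identifiers, and the other block could not be read as a table of its own by the check of units. Hence 3 planned comparisons were not run. Promoter sequences are from RefSeq (GRCh38.p14), apart from the hg19 counts. Library totals limit the precision of low genes, and intervals on counts cover counting error only.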

Additional observations from a re-analysis of the deposited data

Results flagged for a closer look

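Members whose response differed between ASOs by a direct test were the following, with adjusted p from edgeR. Between SETD5-AS1 ASO and LINC00662 ASO the log2 difference was 1.24 for DNAH6 (adjusted p = 3.7e-05), 1.77 for DNAH7 (adjusted p = 0.00104) and 2.60 for DNAH8 (adjusted p = 0.00563), all higher with SETD5-AS1 ASO. Between LINC00641 ASO and LINC00662 ASO it was 0.99 for DNAH6 (adjusted p = 0.00191) and 2.30 for DNAH5 (adjusted p = 0.0232), both higher with LINC00641 ASO, and -1.08 for DNAH3 (adjusted p = 0.0176), lower with LINC00641 ASO. These comparisons were added after the data had been examined.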

How the results depend on the processing

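Over 95 member values and 1029 alternatives, 965 kept direction and side of the thresholds, 51 lost a call, 13 gained one and 0 reversed. Called members went from 3 to 1 in HCT116 under DESeq2 and to 1 with no filter, from 1 to 2 in Neuro-2a under each of these (all genes called from 176 to 398 and 516), from 7 to 4 with LINC00641 ASO under DESeq2, and from 0 to 1 for the mouse interaction with no filter. Without single libraries, called members ranged from 4 to 4 (CBX7), 1 to 5 (HCT116), 5 to 5 (NIH3T3), 0 to 2 (Neuro-2a), 5 to 7 (SETD5-AS1 ASO), 4 to 7 (LINC00641 ASO), 3 to 5 (LINC00662 ASO) and 0 to 1 (mouse interaction), and between targeting ASOs 0 to 0, 3 to 4 and 0 to 3. All genes called ranged from 1109 to 1607 (CBX7), 1064 to 1225 (HCT116), 1701 to 1963 (NIH3T3), 41 to 620 (Neuro-2a), 4156 to 4477 (SETD5-AS1 ASO), 3794 to 4073 (LINC00641 ASO) and 4357 to 4508 (LINC00662 ASO), and between targeting ASOs 177 to 356, 1786 to 1994 and 1334 to 1492. A lone LINC00641 ASO library was assumed to vary like the other group. The cause of these shifts was not tested.

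Correlations of same-numbered libraries ran from -0.0894 to 0.239 and were not above 0.1 for every pair of any comparison, so the libraries share only a number. With the replicate block, called members were 4, 2, 5, 1, 6, 5 and 4 for CBX7, HCT116, NIH3T3, Neuro-2a and the SETD5-AS1, LINC00641 and LINC00662 ASOs. All genes called with the block were 1432, 1202, 1865, 136, 4370, 3769 and 4506. The block ended the calls of DNAH17 (1.0, adjusted p = 0.101 by edgeR) and DNAH2 (0.77, adjusted p = 0.154) with LINC00641 ASO, DNAH2 with SETD5-AS1 ASO (0.92, adjusted p = 0.0658) and DNAH3 in HCT116 (0.82, adjusted p = 0.0535), and changed no other member call in these comparisons. DNAH2 with LINC00662 ASO also lost its call with all ASO groups in 1 fit (0.82, adjusted p = 0.055 by edgeR). DNAH17 with LINC00662 ASO gained one with library size alone (0.88, adjusted p = 0.0419 by edgeR) and with the stricter filter (0.83, adjusted p = 0.0485 by edgeR). The stricter filter leaves out some members with few counts.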
